A study of Mus musculus with 12 samples.

Results

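The 9 genes described here encode enzymes and carriers with which macrophages make itaconate, nitric oxide and superoxide, and they were chosen by name from the 20551 genes of the deposited count table. They are Acod1, Slc7a2, Ass1, Gch1, Nos2, Sod2, Cybb, Cyba and Ncf1. Bulk RNA-seq was run on airway macrophages (AMs) of C57BL/6 mice, either wild-type (WT) mice or Scnn1b-transgenic (Scnn1b-Tg) mice, in which the club cell secretory protein promoter drives, in airway epithelium, the beta subunit of the epithelial sodium channel and the airways fill with mucus. The cells were given lipopolysaccharide (LPS) of Pseudomonas aeruginosa at 100 ng/ml or complete medium alone for 12 h, to set the resting state and the answer to a bacterial product side by side in the 2 genotypes. Mice were 6 weeks old per the methods, and per the labels lavages of 3 to 4 animals were combined. WT pools 16, 17 and 18 and Tg pools 17, 18 and 19 were each split into a medium and an LPS library, which makes 4 groups of 3 libraries. WT 16, WT 17 and Tg 17 were library batch 1, and WT 18, Tg 18 and Tg 19 were batch 2. The labels describe adherent lavage cells, whereas their extract note and the methods describe AMs sorted by flow cytometry, so the way the cells were isolated is uncertain.

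LPS is sensed by Toll-like receptor 4, and macrophages answer with transcription driven by NF-kB, AP-1 and interferon regulatory factors. Acod1 (aconitate decarboxylase 1) turns a Krebs cycle intermediate into itaconate, which blocks a bacterial enzyme of the glyoxylate shunt. Nos2, the inducible nitric oxide synthase, makes nitric oxide from arginine, which Slc7a2 carries into the cell and Ass1 helps to rebuild from citrulline, and Gch1 catalyses the entry step of the synthesis of tetrahydrobiopterin, a cofactor of Nos2. Cybb and Cyba form the membrane core of the phagocyte NADPH oxidase, Ncf1 is the cytosolic subunit that organises its assembly, and Sod2 converts superoxide to hydrogen peroxide in mitochondria.

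All 9 are protein-coding genes annotated on mm10, and the counts cover their exons. The itaconate enzyme Acod1 (ENSMUSG00000022126) lies at chr14:103046977-103056573 on the plus strand. Of the arginine and nitric oxide genes, the annotation places Slc7a2 (ENSMUSG00000031596) at chr8:40862396-40922308 on the plus strand, Ass1 (ENSMUSG00000076441) at chr2:31470207-31520672 on the plus strand, Gch1 (ENSMUSG00000037580) at chr14:47153895-47189413 on the minus strand and Nos2 (ENSMUSG00000020826) at chr11:78920787-78960254 on the plus strand. Of the oxidant genes, it places Sod2 (ENSMUSG00000006818) at chr17:13006846-13040063 on the plus strand, Cybb (ENSMUSG00000015340) at chrX:9435252-9487771 on the minus strand, Cyba (ENSMUSG00000006519) at chr8:122424776-122432930 on the minus strand and Ncf1 (ENSMUSG00000015950) at chr5:134220053-134229625 on the minus strand.

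The sequences upstream of 5 of the genes are shown because these genes carry the contrast between members that rose with LPS (Acod1, Sod2, Gch1 and Cybb) and a member that did not pass the test (Ncf1). RefSeq promoter windows on GRCm38.p6 were found for 7 of the 9 genes, all except Nos2 and Slc7a2. The 250 bases before the RefSeq start were searched on both strands for the kB consensus bound by NF-kB, for the interferon-stimulated response element (ISRE, here GAAA, any 2 bases and GAAA again), for the AP-1 letters TGANTCA and for TATAAA. Each line runs 5′ to 3′ on the gene's strand and holds the longest stretch of that window outside annotated exons, with matches to the kB consensus or to the ISRE letters in capitals. The windows of Sod2 and Cybb lie before the RefSeq start but inside the longer GENCODE gene models.
Acod1, chr14:103046762-103046976, plus strand: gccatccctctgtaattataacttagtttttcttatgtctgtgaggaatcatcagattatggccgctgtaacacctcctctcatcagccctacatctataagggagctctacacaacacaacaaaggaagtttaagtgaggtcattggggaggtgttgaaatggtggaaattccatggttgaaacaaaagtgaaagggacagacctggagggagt
Sod2, chr17:13007589-13007816, plus strand: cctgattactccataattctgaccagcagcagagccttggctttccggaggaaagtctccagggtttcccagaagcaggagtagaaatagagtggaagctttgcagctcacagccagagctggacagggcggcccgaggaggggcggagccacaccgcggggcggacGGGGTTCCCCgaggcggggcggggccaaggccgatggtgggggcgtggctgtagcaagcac
Gch1, chr14:47189414-47189663, minus strand: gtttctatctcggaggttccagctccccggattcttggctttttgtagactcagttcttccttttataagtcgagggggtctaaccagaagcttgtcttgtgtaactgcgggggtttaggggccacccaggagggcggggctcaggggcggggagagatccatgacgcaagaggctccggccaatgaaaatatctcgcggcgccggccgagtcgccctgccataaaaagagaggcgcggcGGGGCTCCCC
Cybb, chrX:9469325-9469574, minus strand: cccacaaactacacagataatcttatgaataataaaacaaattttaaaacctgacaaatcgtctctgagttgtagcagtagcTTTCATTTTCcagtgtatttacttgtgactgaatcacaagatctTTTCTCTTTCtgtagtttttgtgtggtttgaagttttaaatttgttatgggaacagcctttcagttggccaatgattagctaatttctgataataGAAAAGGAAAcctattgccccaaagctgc
Ncf1, chr5:134229626-134229875, minus strand: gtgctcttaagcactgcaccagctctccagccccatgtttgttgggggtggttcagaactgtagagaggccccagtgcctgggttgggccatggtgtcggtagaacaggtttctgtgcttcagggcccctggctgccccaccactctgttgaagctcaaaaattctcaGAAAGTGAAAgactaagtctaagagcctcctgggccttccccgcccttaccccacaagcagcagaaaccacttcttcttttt
Sod2 held a kB match 83 bases and Gch1 another 10 bases before the start, and both matches read as the consensus on either strand. Cybb held 3 matches to the ISRE letters, starting 168, 124 and 29 bases before the start, and Ncf1 held 1, starting 82 bases before it. Cybb also held the AP-1 letters, 139 bases before the start and apart from the capitals. TATAAA was found 28 bases before the start of Acod1, in the part of its window that overlaps an annotated exon and is not printed, and on the opposite strand 188 bases before that of Gch1. None of the 4 motifs was found in the windows of Ass1 and Cyba. Of 32851 mouse promoter windows of the same length, 7.25% held the kB consensus, 2.98% the ISRE letters, 6.75% the AP-1 letters and 12.4% TATAAA. A match is a description of letters only, and Ncf1 held one without a called change.

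Library totals were 48.2 to 60.9 M deposited counts. Values are counts per 1 M counts (CPM, scaled by TMM factors), given as mean ± SD with n = 3 per group unless each library is listed, and fold changes are log2 with standard errors (SE) from edgeR's quasi-likelihood test, with Benjamini-Hochberg adjustment over 13729 genes and a threshold of 0.05. Libraries of a genotype came from separate pools. All 12 listed alveolar macrophage markers were above the detection floor in every group, at a summed 12010 to 12832 CPM without and 8630 to 10694 CPM with LPS in WT AMs, and 14126 to 17589 and 10287 to 15451 CPM in Scnn1b-Tg AMs. Chil3 made up most of these sums. Summed markers of neutrophils reached at most 37.8 CPM (7 of 10 listed genes analysed), of monocytes 12.7 (7 of 8), of dendritic cells 4.19 (5 of 7), of T or NK cells 1.52 (8 of 8) and of B cells 1.89 (5 of 6), and Ly6g and Elane were not analysed here. Epithelial markers (10 of 10) summed to 119 to 136 CPM without and 87.1 to 129 CPM with LPS in WT AMs, and to 70.6 to 106 and 41.3 to 73.5 CPM in Scnn1b-Tg AMs. In bulk RNA, fewer cells of a type and less RNA per cell cannot be told apart.

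With LPS, 6 of the 8 members that could be compared without a group at 0 rose in WT AMs and 6 of 8 in Scnn1b-Tg AMs, the same 6 genes: Acod1, Slc7a2, Ass1, Gch1, Sod2 and Cybb. The median log2 fold change of the 8 members was 1.56 in WT and 1.91 in Scnn1b-Tg AMs, against 0.0029 and -0.015 over all genes tested. For comparison, 31.8% of all genes tested were called with LPS in WT AMs (15.5% called higher), and 38.1% in Scnn1b-Tg AMs (19.3% called higher). The 3 LPS and 3 medium libraries did not overlap for 38.7% of all genes tested in the WT pools and for 43.8% in the Tg pools. Cyba and Ncf1 did not pass the test in either genotype. Nos2, which stayed near the detection floor, is described apart.

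**Figure D1:**
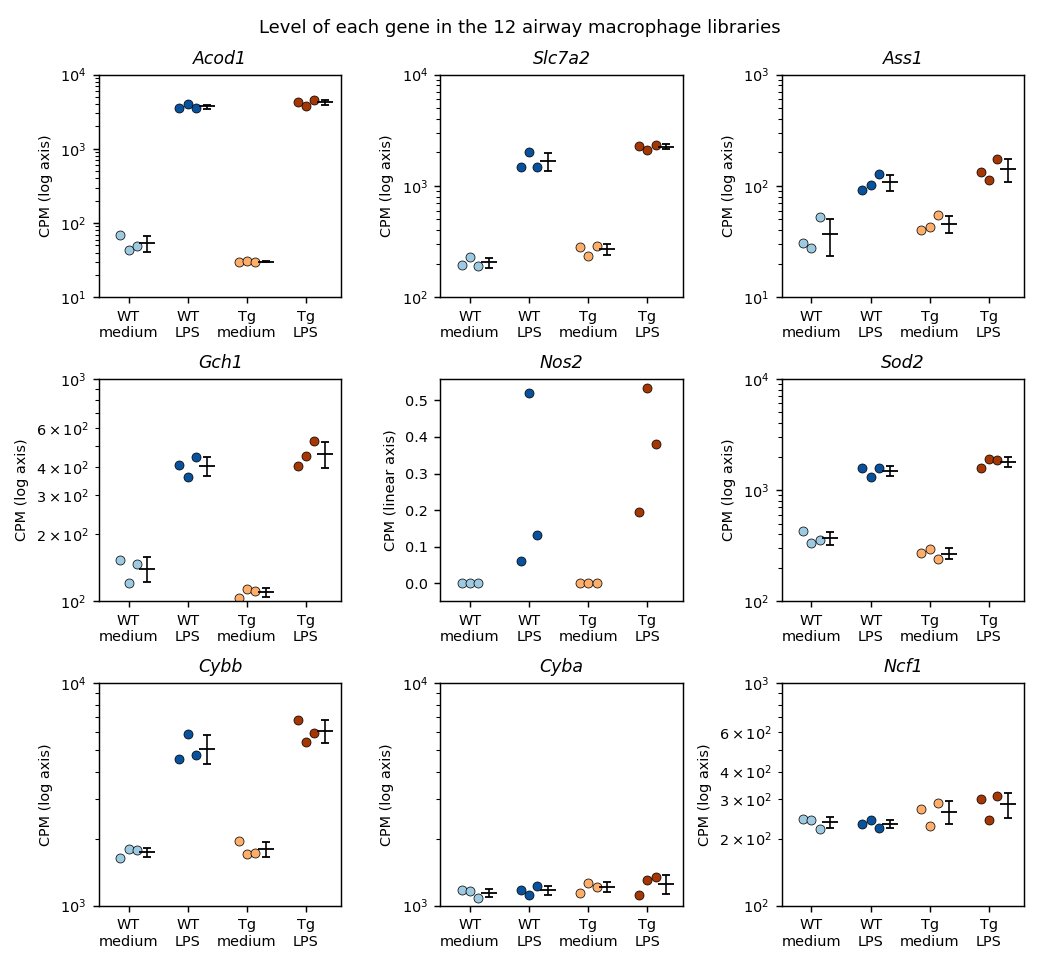
CPM of each gene (log axes, except Nos2 on a linear axis) in the 12 libraries, 3 points per group, with the mean and SD beside them (no mean for Nos2). Acod1 lay between 29.5 and 69.1 CPM in medium and between 3581 and 4581 with LPS, whereas Cyba lay between 1084 and 1340 in all libraries.

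Acod1 showed the largest change of the 8 genes with a fold change, since none can be ranked for Nos2. In medium its level was 69.1, 43.6 and 49.1 CPM in WT pools 16, 17 and 18, and 29.5, 30.9 and 29.97 CPM in Tg pools 17, 18 and 19. With LPS it was 3581, 3984 and 3584 CPM in the WT pools and 4274, 3816 and 4581 CPM in the Tg pools. All 6 LPS libraries thus lay above all medium libraries. The log2 fold change was 6.11 (SE 0.18, adjusted p = 8.13e-09) in WT and 7.13 (SE 0.19, adjusted p = 2.06e-09) in Scnn1b-Tg AMs by edgeR's quasi-likelihood test, which is a 68.9-fold and a 140-fold rise. Among 13729 genes tested it ranked 85 by size of rise in WT and 53 in Scnn1b-Tg AMs. Per kilobase of exon, Acod1 moved from rank 2220 to rank 23 of 13544 genes in WT and from 3529 to 21 in Scnn1b-Tg AMs, at a mean of 1417 and 1610 CPM per kilobase with LPS.

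The arginine carrier Slc7a2 had the next largest rise. Its level was 196, 230 and 190 CPM in WT medium (pools 16, 17 and 18) and 1494, 2029 and 1482 CPM with LPS. In Scnn1b-Tg AMs (pools 17, 18 and 19) it was 284, 236 and 288 CPM in medium and 2289.7, 2108 and 2333 CPM with LPS. LPS and medium libraries did not overlap, and the log2 fold change was 3.02 (SE 0.13) in WT AMs and 3.06 (SE 0.13) in Scnn1b-Tg AMs. The other cationic amino acid carrier listed, Slc7a1, rose by less, by 0.85 (SE 0.17) and 1.12 (SE 0.18) on the log2 scale. The transcript of Slc7a2 shares 635 bp of exon with Gm26584 on the other strand, and counting ignored strand.

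Gch1, on the way to the cofactor of nitric oxide synthase, rose as well. It was at 153, 120.5 and 147 CPM in WT medium (pools 16, 17 and 18) and at 409, 364 and 445 CPM with LPS. In Scnn1b-Tg AMs it was at 104, 114 and 112 CPM in medium (pools 17, 18 and 19) and at 406, 448 and 526 CPM with LPS. Groups did not overlap between treatments, and the log2 fold change was 1.53 (SE 0.10) in WT AMs and 2.06 (SE 0.10) in Scnn1b-Tg AMs. Pts, which acts after Gch1 in the same synthesis, fell in WT by 1.05 (SE 0.17) and in Scnn1b-Tg AMs by 1.17 (SE 0.17) on the log2 scale, from 13.4 ± 2.12 to 6.43 ± 1.11 CPM and from 16.8 ± 1.40 to 7.60 ± 2.21 CPM.

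Ass1, argininosuccinate synthase, had the lowest level per kilobase of exon among these 6 genes with LPS, and was at 30.7, 27.8 and 52.4 CPM in WT medium (pools 16, 17 and 18) and 92.6, 103 and 128 CPM with LPS. In Scnn1b-Tg AMs (pools 17, 18 and 19) it was at 39.8, 42.7 and 55.1 CPM in medium and 135, 112 and 176 CPM with LPS. The log2 fold change was 1.57 (SE 0.19) in WT AMs and 1.63 (SE 0.19) in Scnn1b-Tg AMs, with no overlap between treatments. Its values are uncertain, because 38.6% of the 50-base stretches of its transcripts also occur in Gm5424, a processed pseudogene at chr10:62071123-62072362 (mm10). The count of Gm5424 rose alongside it, by 1.56 (SE 0.22) and 1.66 (SE 0.22) on the log2 scale, and the sum of the 2 genes was 46.5 ± 16.9 CPM in WT medium, 136 ± 23.3 in WT LPS, 56.9 ± 9.93 in Scnn1b-Tg medium and 176 ± 41.5 in Scnn1b-Tg LPS. Asl, which completes the rebuilding of arginine, did not pass the test, with a log2 fold change of 0.16 (adjusted p = 0.123) in WT and 0.14 (adjusted p = 0.170) in Scnn1b-Tg AMs by edgeR.

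Nos2 was at 0 counts in all 6 medium libraries. With LPS it held 3, 30 and 7 counts in WT pools 16, 17 and 18, and 11, 28 and 20 counts in Tg pools 17, 18 and 19, which is 0.238 ± 0.248 and 0.369 ± 0.17 CPM. A floor of 8 deposited counts, the worth of about 3 reads, corresponds to 0.137 to 0.163 CPM depending on the library and covers counting error only. Nos2 was above it in 1 of 3 WT LPS and in 3 of 3 Scnn1b-Tg LPS libraries. The mean in Scnn1b-Tg LPS was 2.52-fold the mean floor of the medium libraries. That ratio leaves out the spread of the LPS libraries, and no fold is given for WT. Adjusted p (edgeR quasi-likelihood) was 0.0279 in Scnn1b-Tg and 0.0659 in WT AMs, and the WT value became 0.0454 with the pool as a block and 0.00168 by DESeq2. Over the 19 alternatives that tested Nos2 in WT the value ranged from 0.00168 to 0.131. The Scnn1b-Tg call was lost when any 1 of 5 libraries was left out (the 3 medium libraries or the LPS library of Tg pool 18 or 19, adjusted p 0.0586 to 0.0760, edgeR). With counts divided by 5, Nos2 did not pass the low-count filter and had no test in either genotype. Nos2 passed the low-count filter only through its LPS libraries, and a difference between genotypes was not detectable at this depth, with counts of 3 to 30 in WT and 11 to 28 in Scnn1b-Tg LPS. Neither of the other nitric oxide synthases was above the floor in any library: Nos1 was at most 0.05 CPM and Nos3 at most 0.15 CPM.

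Sod2, the mitochondrial superoxide dismutase, rose from 427, 333 and 360.0 CPM in WT medium (pools 16, 17 and 18) to 1575, 1311 and 1572.5 CPM with LPS. In Scnn1b-Tg AMs (pools 17, 18 and 19) it went from 271, 299 and 239 CPM to 1573, 1912 and 1883 CPM. Treatments did not overlap, and the log2 fold change was 1.99 (SE 0.13) in WT AMs and 2.73 (SE 0.13) in Scnn1b-Tg AMs. Of the 50-base stretches of its transcripts, 17.6% also occur in AC166110.4, which was not analysed here, and 16.0% in Rps6ka2, both on the same strand, so its values are uncertain. Rps6ka2 itself rose from 114 ± 18.2 to 277 ± 61.9 CPM in WT AMs and from 97.8 ± 12.7 CPM to 229 ± 43.6 CPM in the Tg pools. Their summed level went from 487 ± 42.5 CPM in medium to 1763 ± 92.0 CPM with LPS in WT AMs, and with LPS reached 2019 ± 144 CPM from 367 ± 36.5 CPM in the transgenic cells.

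The 3 NADPH oxidase subunits behaved unequally. Cybb, the catalytic subunit, was at 1638, 1792 and 1778 CPM in WT medium (pools 16, 17 and 18) and at 4542, 5929 and 4732 CPM with LPS. In Scnn1b-Tg AMs (pools 17, 18 and 19) it was at 1945, 1706 and 1727 CPM in medium and at 6833, 5414 and 5984 CPM with LPS. It rose by 1.54 (SE 0.11) in WT AMs and by 1.76 (SE 0.11) in Scnn1b-Tg AMs on the log2 scale, and no LPS library overlapped a medium library. Its partner Cyba was at 1142 ± 51.4 CPM in WT medium, 1174 ± 56.2 in WT LPS, 1211 ± 63.5 in Scnn1b-Tg medium and 1255 ± 121 in Scnn1b-Tg LPS. For Cyba the log2 difference with LPS was 0.04 (95% confidence interval -0.14 to 0.21) in WT and 0.05 (-0.12 to 0.22) in Scnn1b-Tg AMs, so that a change of the size seen for Cybb lay outside both intervals. Ncf1 was at 236 ± 13.6, 232 ± 9.49, 263 ± 30.6 and 285 ± 37.0 CPM in the same order of groups, with log2 differences of -0.03 (-0.25 to 0.20) and 0.11 (-0.11 to 0.34). Of the exons of Ncf1, 408 bp overlap Gtf2ird2 on the other strand. Per kilobase of exon, Cyba was the most abundant of the 9 genes in medium, at 1099 ± 49.5 CPM per kilobase in WT and 1165 ± 61.1 in Scnn1b-Tg AMs, followed by Cybb at 299 ± 14.6 and 309 ± 22.7, and Acod1 was the most abundant with LPS, at 1417 ± 88.4 in WT and 1610 ± 147 in Scnn1b-Tg AMs. Per kilobase with LPS, Cyba followed at 1130 ± 54.1 and 1207 ± 116 and Cybb at 873 ± 129 and 1046 ± 123, and in Scnn1b-Tg AMs these last 2 levels differed by less than the sum of their SDs.

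**Figure D2:**
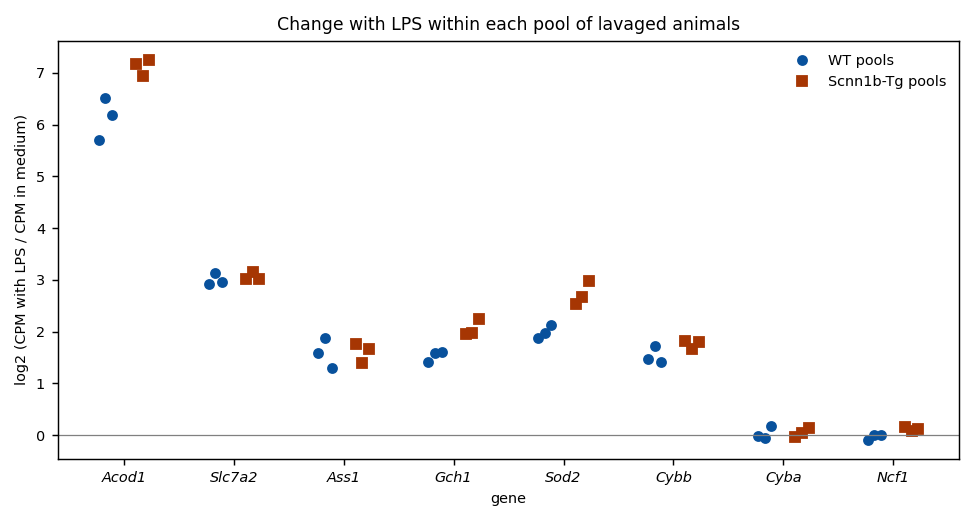
Log2 ratio of CPM with LPS to CPM in medium within each pool of 8 genes (Nos2, at 0 in medium, is left out), circles for the 3 WT pools and squares for the 3 Scnn1b-Tg pools. Acod1, Gch1 and Sod2 rose more in every Scnn1b-Tg pool than in any WT pool and the small ratios of Ncf1 did not overlap either, as for 16.2% of all genes tested, whereas the pools of Slc7a2, Ass1, Cybb and Cyba overlapped. The medium levels of Acod1, Gch1 and Sod2, which these ratios divide by, were lower in the Scnn1b-Tg pools, and their LPS levels overlapped.

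Because each pool gave a medium and an LPS library, the rise could be taken pool by pool. Acod1 rose 51.8 to 91.3-fold in the WT pools and 123 to 153-fold in the Tg pools. The range for Sod2 was 3.69 to 4.37-fold in WT and 5.81 to 7.87-fold in Tg pools, and that for Gch1 was 2.67 to 3.02-fold and 3.90 to 4.72-fold. For these 3 genes, and for the small ratios of Ncf1 (0.942 to 1.01 and 1.06 to 1.11), no WT pool overlapped a Tg pool, which also held for 16.2% of all genes tested. Slc7a2 rose 7.62 to 8.82-fold in WT and 8.06 to 8.94-fold in Tg pools, and Cybb 2.66 to 3.31-fold and 3.17 to 3.51-fold, with overlap.

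The difference between the LPS changes of the genotypes (the interaction) was 1.02 (SE 0.21, unadjusted p = 0.000435, adjusted p = 0.329) for Acod1, 0.74 (SE 0.18, unadjusted p = 0.00156, adjusted p = 0.424) for Sod2 and 0.53 (SE 0.14, unadjusted p = 0.00327, adjusted p = 0.516) for Gch1 on the log2 scale by edgeR. Each joins a lower medium level in Scnn1b-Tg AMs (log2 differences of -0.82, -0.50 and -0.41) and a smaller difference with LPS (0.21, 0.24 and 0.12). It is therefore not separate from the medium difference described below. No member was called, and neither was any of the 13729 genes (0.0%). At an unadjusted p under 0.05 there were 3 of 8 members, all with the larger rise in Scnn1b-Tg AMs, against 5.95% of all genes. DESeq2 called 77 genes, among them Acod1 (adjusted p = 0.00222) and Sod2 (adjusted p = 0.0339), and the highest adjusted p over the alternatives was 0.715 for Acod1 and 0.815 for Sod2. The intervals of the difference were -0.34 to 0.42 for Slc7a2, -0.52 to 0.63 for Ass1, -0.12 to 0.55 for Cybb, -0.23 to 0.26 for Cyba and -0.18 to 0.46 for Ncf1.

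In medium, Acod1, Sod2 and Gch1 were lower and Slc7a2 was higher in all 3 Scnn1b-Tg libraries than in any WT library, but no member passed the adjusted threshold. Acod1 was at 53.9 ± 13.4 CPM in WT AMs and 30.2 ± 0.72 CPM in Scnn1b-Tg AMs, a log2 difference of -0.82 (SE 0.15, unadjusted p = 0.000248, adjusted p = 0.0577, edgeR). The log2 difference was -0.50 (SE 0.13, adjusted p = 0.136) for Sod2, at 373 ± 48.7 and 269.6 ± 29.8 CPM, and -0.41 (SE 0.10, adjusted p = 0.126) for Gch1, at 140.3 ± 17.4 and 109.7 ± 4.97 CPM, in the edgeR fit. Slc7a2 differed the other way, by 0.44 (SE 0.13, adjusted p = 0.171, edgeR), at 206 ± 21.3 and 269 ± 28.9 CPM. Within library batches 1 and 2 the differences were -0.88 and -0.68 for Acod1, -0.48 and -0.43 for Sod2, -0.38 and -0.39 for Gch1 and 0.42 and 0.45 for Slc7a2. The signs of these genes follow from the lack of overlap and add no support. Among members whose groups overlapped, the sign differed between the batches for Ass1 (0.44 and -0.11), Cybb (0.18 and -0.05) and Cyba (-0.03 and 0.20). It was the same for Ncf1 (0.15 and 0.22). With 2 pools of 1 genotype and 1 of the other in each batch, these within-batch values have no test.

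Over all genes tested in medium, 0.335% were called, 13.4% had an unadjusted p under 0.05 and 18.4% did not overlap between the genotypes. Of the 8 members, 0 were called, 4 had an unadjusted p under 0.05 (3 lower and 1 higher in Scnn1b-Tg AMs) and the same 4 did not overlap. DESeq2 called these 4 members among 500 genes, with adjusted p = 8.72e-05 for Acod1, 0.0177 for Sod2, 0.0165 for Gch1 and 0.0397 for Slc7a2. Without the medium library of WT pool 17, the lowest WT library for this gene, edgeR called Acod1, at a log2 difference of -0.94 (adjusted p = 0.0313), and over all alternatives its adjusted p ranged from 8.72e-05 to 0.288. Ass1, Cybb, Cyba and Ncf1 had log2 differences of 0.21 (95% confidence interval -0.21 to 0.63), 0.09 (-0.16 to 0.33), 0.05 (-0.13 to 0.23) and 0.19 (-0.05 to 0.43). Beside these differences, summed alveolar macrophage markers were higher in every Scnn1b-Tg medium library than in any WT one, neutrophil markers were at 27.3 to 37.8 against 20.7 to 24.2 CPM, and epithelial markers were lower, and their part in the result was not tested.

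**Figure D3:**
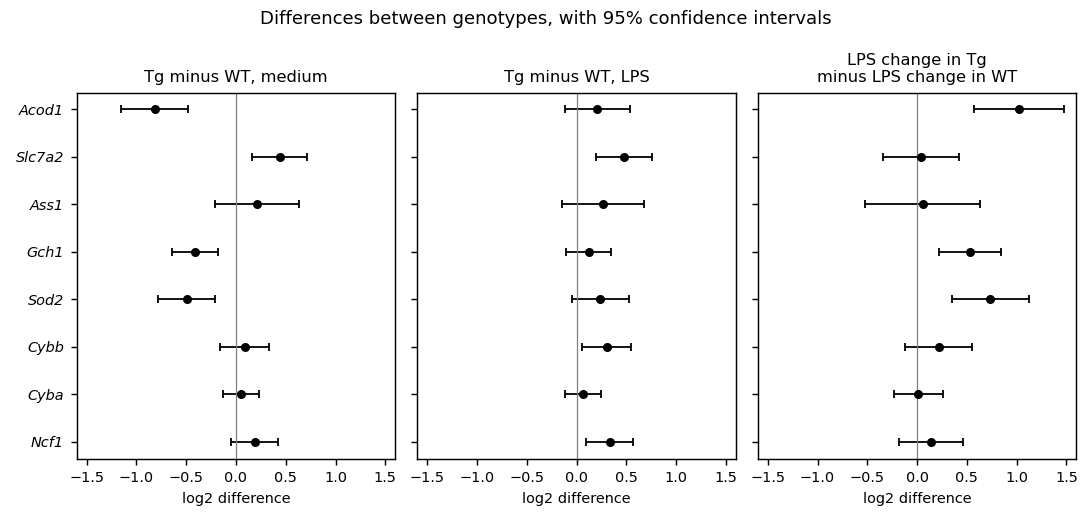
Log2 differences between genotypes of 8 genes (points) with 95% confidence intervals (bars), for Scnn1b-Tg minus WT in medium (left), in LPS (centre) and for the LPS change in Scnn1b-Tg minus that in WT (right). In medium the intervals of Acod1, Gch1 and Sod2 lay below 0 and that of Slc7a2 above it before adjustment, and with LPS those of Slc7a2, Cybb and Ncf1 lay above 0.

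With LPS, all 8 members had a positive log2 difference between Scnn1b-Tg and WT AMs, with a median of 0.25 against 0.0045 over all genes tested, and none was called. Slc7a2 was at 1668 ± 312 CPM in WT AMs and 2243 ± 119 CPM in Scnn1b-Tg AMs, a log2 difference of 0.48 (SE 0.13, unadjusted p = 0.00309, adjusted p = 0.290, edgeR), with no overlap and with 0.40 and 0.58 in batches 1 and 2. Ncf1 also did not overlap, with a difference of 0.33 (SE 0.11, adjusted p = 0.427, edgeR) and 0.35 and 0.30 by batch. The signs by batch of Slc7a2 and Ncf1 follow from the lack of overlap and add no support. Cybb differed by 0.30 (SE 0.11, adjusted p = 0.554, edgeR), and its groups overlapped. Among members whose groups overlapped, the sign differed between the batches for Cyba (-0.04 and 0.10). It was the same for Acod1, Sod2, Ass1, Gch1 and Cybb. The differences of Acod1, Sod2 and Gch1, whose medium levels lay lower in the Scnn1b-Tg libraries, were 0.21 (95% confidence interval -0.12 to 0.53), 0.24 (-0.04 to 0.52) and 0.12 (-0.11 to 0.35) with LPS, and those of Ass1 and Cyba were 0.27 (-0.15 to 0.68) and 0.06 (-0.12 to 0.24). Of the 8 members, 3 had an unadjusted p under 0.05 and 2 did not overlap, against 7.12% and 9.11% of all genes, and 0.051% of all genes were called. DESeq2 called Slc7a2 (adjusted p = 0.0489) among 146 genes. The genotype comparisons in LPS and in medium share no libraries, but they share the same pools and the same fit, so they are not independent. The genotype and LPS comparisons share libraries.

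The other genes of these pathways moved in both directions with LPS, as genes did over the whole data. Of all genes tested, 31.8% were called in WT (15.5% higher) and 38.1% in Scnn1b-Tg AMs (19.3% higher). Beside these shares, the counts of this list and of the lists below are descriptions and not results about the pathways. In the list on arginine and nitric oxide, 3 of 17 genes tested rose and 5 fell in WT, and 3 rose and 6 fell in Scnn1b-Tg AMs. Arg2, the mitochondrial arginase that splits arginine to ornithine and urea, rose by 2.64 (SE 0.16) and 3.33 (SE 0.16) on the log2 scale, from 4.72 ± 0.62 to 29.5 ± 0.52 CPM in WT AMs and from 4.27 ± 0.63 CPM to 43.1 ± 6.98 CPM in the Tg pools. Exons of Arg2 overlap Vti1b by 285 bp and Gm48780 by 116 bp, so its counts are uncertain. Calm2, 1 of 3 genes for calmodulin, fell in WT by 0.84 (SE 0.13) and in Scnn1b-Tg AMs by 0.97 (SE 0.13). The median log2 fold change of the list was -0.09 in WT and -0.07 in Scnn1b-Tg AMs.

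Among the other NADPH oxidase genes, 4 of 8 rose and 1 fell in WT, and 5 rose and 1 fell in Scnn1b-Tg AMs. The proton channel Hvcn1, which balances the charge of the oxidase, rose by 0.68 (SE 0.08) and 0.87 (SE 0.08), and the cytosolic subunit Ncf4 by 0.59 (SE 0.09) and 0.93 (SE 0.09). The GTPase Rac1 fell in WT by 0.30 (SE 0.06) and in Scnn1b-Tg AMs by 0.37 (SE 0.06). The exons of Hvcn1 overlap Tctn1 and those of Rac1 overlap Daglb, by 1574 and 2309 bp, so their counts are uncertain.

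Of 12 genes for the disposal of superoxide and peroxide, 3 rose and 2 fell in WT and 3 rose and 1 fell in Scnn1b-Tg AMs. The peroxiredoxins Prdx5 and Prdx6 rose, by 1.73 (SE 0.17) and 1.57 (SE 0.20) in WT and by 1.87 (SE 0.17) and 1.80 (SE 0.20) in Scnn1b-Tg AMs. The glutathione peroxidase Gpx1 fell in WT by 0.94 (SE 0.18) and in Scnn1b-Tg AMs by 1.03 (SE 0.18). Ccs, the copper chaperone of Sod1, fell by 0.35 (SE 0.12) in WT AMs, and its log2 difference in Scnn1b-Tg AMs was -0.21 (adjusted p = 0.179, edgeR). Exons of Prdx5 overlap Trmt112 by 409 bp.

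Of 12 genes at the source of itaconate or among its targets, 1 rose and 2 fell in WT and 3 rose and 3 fell in Scnn1b-Tg AMs. Rab32, a GTPase through which itaconate reaches vacuoles holding bacteria, rose by 0.94 (SE 0.07) in WT AMs and 1.31 (SE 0.07) in Scnn1b-Tg AMs, and Sdha, a subunit of the succinate dehydrogenase that itaconate inhibits, fell in WT by 0.33 (SE 0.07) and in Scnn1b-Tg AMs by 0.37 (SE 0.07). In Scnn1b-Tg AMs the dicarboxylate carrier Slc25a10 also rose, by 0.37 (SE 0.08), and Aco1 fell by 0.29 (SE 0.10).

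Of 10 other antimicrobial effectors tested, 6 rose and 2 fell in WT and 7 rose and 2 fell in Scnn1b-Tg AMs. In WT medium, Hamp was at 0.08 ± 0.07, Saa3 at 0.15 ± 0.27 and Camp at 0 CPM. The levels in Scnn1b-Tg medium were 0.07 ± 0.06, 0.24 ± 0.16 and 0 CPM, also near or below the floor. Hamp and Camp passed the low-count filter only through their LPS libraries, so the filter favoured a rise and their part in the counts adds no support. Lcn2, which binds bacterial siderophores, went from 0.18 ± 0.18 to 16.9 ± 7.29 CPM in WT AMs and from 0.35 ± 0.07 CPM to 46.0 ± 3.92 CPM in the Tg pools, so its log2 fold changes of 6.58 (SE 0.48) and 7.02 (SE 0.43) start near the floor. The protease inhibitor Slpi rose by 3.90 (SE 0.16) and 3.93 (SE 0.16), from 224 ± 40.2 to 3335 ± 685 CPM in WT. The lysozymes Lyz2 and Lyz1 fell in WT by 1.00 (SE 0.13) and 0.84 (SE 0.19) and in Scnn1b-Tg AMs by 0.84 (SE 0.13) and 0.93 (SE 0.19), and as closely related copies they may share reads. No gene of the 5 lists was called between the genotypes in medium, with LPS or in the interaction by edgeR.

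**Figure D4:**
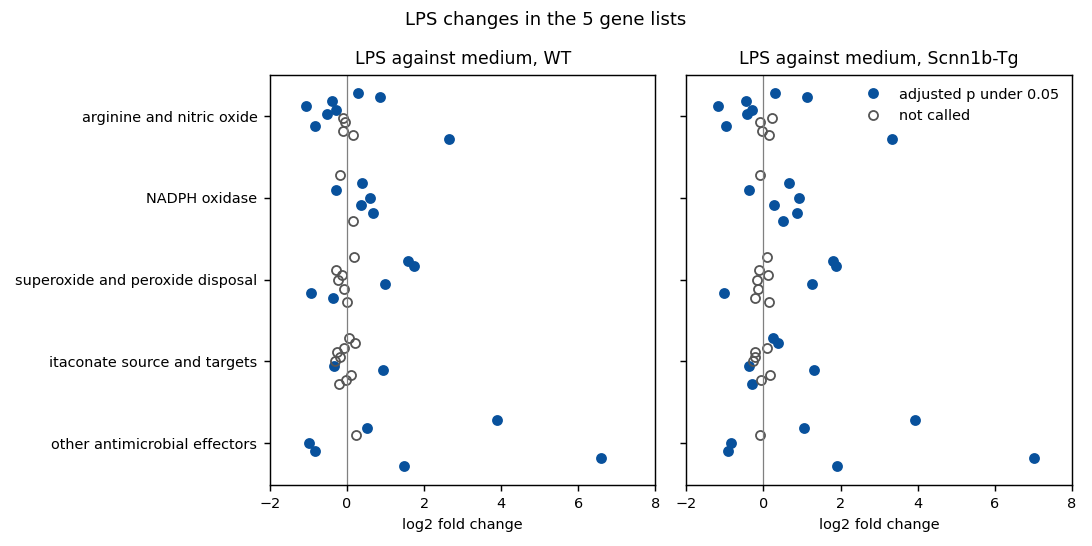
Log2 fold change with LPS of each listed gene with a mean of at least 5 CPM, in WT (left) and Scnn1b-Tg AMs (right), by list, with filled points for adjusted p under 0.05. Each list holds genes on both sides of 0. Lcn2 lies farthest to the right, at 6.58 in WT and 7.02 in Scnn1b-Tg AMs, from medium levels near the floor.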

How the data were processed

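The authors aligned read pairs of 125 bp (SMART-Seq libraries) to mm10 with HISAT2 without strand, quantified transcripts with StringTie and deposited estimated counts per gene as whole numbers. A sequenced read is worth about 2.5 deposited counts. That step shows in the 47985 counts of 1 to 30, as 55.3% of them left 0 or 3 when divided by 5 (40% if spread evenly). Totals were 48.2 to 60.9 M per library, and floors cover counting error only, whereas the confidence intervals come from the fitted model.

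Gene symbols, positions and overlaps came from GENCODE M21 (mm10), in which 20158 of 20551 IDs matched, and unmatched IDs held 0.245% of counts. edgeR 4.0.16 in R 4.3.3 was run with filterByExpr (minimum count 10, minimum total 15), TMM and a quasi-likelihood model of group and library batch on all 12 libraries, with Benjamini-Hochberg adjustment over 13729 genes. All tests were two-sided. DESeq2 1.42.0, limma 3.58.1 with the pool as a random effect, a replicate block (the pool for LPS against medium and the interaction, the pool number between genotypes), other filters, scalings, covariates, counts divided by 5 and leaving out each library were alternatives. Within-batch differences used log2 of CPM plus 0.5.

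The numbers of the pools pair the medium and LPS libraries of a genotype: deviations from group means correlated at 0.137 to 0.335 within the 6 pools, and at -0.30 to 0.0831 between pools of a genotype. Across genotypes the same number correlated at 0.110 to 0.261, without shared animals.

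Members, lists and tests were chosen with earlier results of these data known. Named genes were all 9 members and, per list and LPS comparison, up to 2 called genes with the largest rise and 2 with the largest fall at a mean of at least 5 CPM. Asl, Nos1, Nos3, Gm5424 and Rps6ka2 were added after their values were seen. The sequences are from RefSeq on GRCm38.p6, and shared stretches of 50 bases from GENCODE transcripts.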

Additional observations from a re-analysis of the deposited data

How the results depend on the processing

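The rises of Acod1, Slc7a2, Ass1, Gch1, Sod2 and Cybb with LPS kept their direction and an adjusted p under 0.05 in both genotypes under all 21 alternatives. Of the values of single members, 834 kept their direction and side of the threshold, 13 passed it, 5 lost it and 19 reversed. The reversals were of differences near 0. Ncf1 with LPS in WT was 0.00137 without the low-count filter and 0.00307 with only the libraries of the comparison. With 1 library left out, Cyba ranged from -0.0301 to 0.0783 with LPS in WT, from -0.0767 to 0.0865 between genotypes in medium and from -0.0281 to 0.0915 in the interaction, where Ass1 ranged from -0.17 to 0.25 and Slc7a2 from -0.0517 to 0.188.

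DESeq2 called 1 member with LPS, 4 in medium and 2 in the interaction, where edgeR called 0, and 146, 500 and 77 genes in place of 7, 46 and 0, and the cause was not tested. Genes called between genotypes with LPS numbered 4 without the batch term, 2 with only the libraries of the comparison, 12 with the replicate block and 11 with the pool as a random effect. In medium they numbered 18 without the low-count filter, 28 without the batch term, 20 with only the libraries of the comparison and 77 with the replicate block. Leaving out 1 library at a time gave 2 to 10 genes with LPS, 3 to 49 in medium with 0 to 1 members, and 0 to 1 in the interaction.

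Adjusted p for Nos2 ranged from 0.00168 to 0.131 over the 19 alternatives that tested it in WT. In Scnn1b-Tg AMs it was above 0.05 without 5 single libraries, at up to 0.076 without the LPS library of Tg pool 18. With counts divided by 5, Nos2 did not pass the low-count filter and had no test. With the pool as a block, Nos2 was called in WT, and the replicate block changed no other call of a member. Depth limits what can be said of Nos2. Where a left-out library leaves 2 in a group, the fit pools the spread over groups.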

Other observations

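Genes whose log2 CPM over the 12 libraries was most like that of a member were sought among the 9101 genes whose mean reached 5 CPM. The libraries fall into medium and LPS libraries that share pools, so a high r holds this step above all and is a description without a test. Acod1 was most like Zc3h12c (r = 0.998), which encodes a CCCH zinc finger protein, Cflar (r = 0.997), an inhibitor of caspase-8, and Ptges (r = 0.997), the prostaglandin E synthase. Sod2 was most like the death receptor Fas (r = 0.999), Pilra (r = 0.998) and the C-type lectin Clec4e (r = 0.997), and Gch1 like the formyl peptide receptor Fpr1 (r = 0.996), Pilra (r = 0.996) and Spryd7 (r = 0.995). Ass1 was most like its pseudogene Gm5424 (r = 0.997), with which it shares sequence, and then like the interferon-induced genes Ifi47 and Ifi35 (r = 0.989 each). Slc7a2 and Cybb were among the closest to each other (r = 0.993), with Trpm4 and Socs3 beside Slc7a2 and Tor3a and Hsph1 beside Cybb. Cyba and Ncf1, which did not pass the test with LPS, were most like Krtcap2 (r = 0.913) and Arfip2 (r = 0.93), and had an r of 0.20 with each other.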
